A study of Mus musculus with 208 samples.

Results

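Gfap, Vim, Serpina3n, S100b, Lcn2, Osmr, C4b, H2-D1 and Cd44 are 9 genes in common use as markers of reactive astrocytes. They were taken as a list of names, chosen with earlier results of these data known. They are 9 of the 39179 gene IDs in the deposited striatal tables. All 9 were found. Counts of 8 members were high enough to be tested at 2 months of age and those of all 9 at 6 and 10 months, Lcn2 being the member left out at 2 months.

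Astrocytes take up glutamate and potassium, supply neurons with metabolites and cover blood vessels. After injury, infection or in neurodegeneration they become reactive: they build more intermediate filament protein, secrete protease inhibitors and complement, and respond more strongly to cytokines. Gfap and Vim encode the filament proteins GFAP and vimentin. Serpina3n encodes a secreted serine protease inhibitor, Lcn2 a secreted lipocalin that binds iron-loaded siderophores, and C4b complement component 4. S100b encodes a calcium-binding protein that brain oligodendrocyte lineage cells make as well as astrocytes. Osmr encodes the oncostatin M receptor, which signals with gp130 through JAK kinases and STAT3, and Cd44 encodes a receptor for hyaluronan. H2-D1 encodes a classical MHC class I heavy chain, which many cell types express. Astrogliosis is a known feature of the striatum in advanced Huntington's disease.

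The study measured polyA RNA of the striatum in 144 libraries from knock-in mice and 64 from wild types, all of strain C57BL/6. Knock-in mice were heterozygous for an Htt allele named for its CAG repeat length, Q20, Q80, Q92, Q111, Q140 or Q175, and were sampled at 2, 6 or 10 months, 8 libraries in each of 18 groups. The wild types formed 8 groups of 8: mice housed with Q20 animals at all 3 ages, and mice housed with each of the other 5 lines at 6 months only. Each group held 4 females and 4 males, except Q80 at 2 months with 3 females and 5 males and Q20 at 10 months with 5 females and 3 males. Q20 carries the same kind of altered allele with a short repeat and served here as the reference for the other lines, which therefore share the Q20 libraries of their age in every comparison with it. The labels number libraries within sex but do not say outright that each is a separate animal; where they are not, the p-values measure only the spread between libraries. The libraries are of whole striatum, so a change in the number of cells of a type and a change in RNA per cell cannot be told apart.

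Library totals ran from 29.1 M to 49.6 M counts (M for mega). The median total was 31.9 M in 2-month mice, 41 M in 6-month mice and 33 M in 10-month mice. Htt itself was lower in Q175 than in Q20. Its log2 fold change was -0.41 (SE 0.03, adjusted p = 6.3e-25) in 6-month mice, -0.52 (SE 0.08, adjusted p = 3.0e-07) in 10-month mice, and -0.27 in 2-month mice, which did not pass (adjusted p = 0.83). At 2 months 7 libraries had over 17% of their counts on mitochondrial genes, against at most 14.86% in the others, and 5 of the 7 correlated with their peers below 0.97; the line, slope and sex fits at that age and the comparisons of 10 with 2 months were repeated without them. One male library of 2 months had no Y-linked counts. None of the markers used for medium spiny neurons, astrocytes, oligodendrocytes, microglia or endothelial cells was at 0 in any library.

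To show the DNA just upstream of the 5 members with the largest called differences in Q175 at 10 months, the 250 bases before the annotated start were taken from RefSeq (build GRCm38.p6), which held 8 of the 9 members; C4b was the other. Serpina3n, Gfap, Vim, H2-D1 and S100b are printed 5′ to 3′ on the gene's strand, in lower case, with matches to 5 short motifs in capitals. The motifs were the STAT letters TTCNNNGAA, the interferon response letters GAAANNGAA, the NF-kB letters GGGATTCCC and CCAAT, each on both strands, and TATAAA on the gene's strand; no match printed here overlaps another.
Serpina3n, chr12:104406458-104406707 (plus strand): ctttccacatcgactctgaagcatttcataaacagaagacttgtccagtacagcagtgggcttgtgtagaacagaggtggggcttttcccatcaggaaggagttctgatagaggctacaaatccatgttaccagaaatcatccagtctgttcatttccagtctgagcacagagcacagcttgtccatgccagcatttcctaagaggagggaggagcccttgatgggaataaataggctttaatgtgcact
Gfap, chr11:102897201-102897450 (minus strand): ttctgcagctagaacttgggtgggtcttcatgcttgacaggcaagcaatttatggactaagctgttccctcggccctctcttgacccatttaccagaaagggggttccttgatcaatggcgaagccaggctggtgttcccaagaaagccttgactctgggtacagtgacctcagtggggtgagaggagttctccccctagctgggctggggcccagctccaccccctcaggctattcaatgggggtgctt
Vim, chr2:13574061-13574310 (plus strand): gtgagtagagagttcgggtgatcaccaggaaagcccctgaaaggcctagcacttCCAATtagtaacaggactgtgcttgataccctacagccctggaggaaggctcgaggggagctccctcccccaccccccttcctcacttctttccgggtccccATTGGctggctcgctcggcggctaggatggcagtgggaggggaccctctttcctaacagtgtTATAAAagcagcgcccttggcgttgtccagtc
H2-D1, chr17:35262844-35263093 (plus strand): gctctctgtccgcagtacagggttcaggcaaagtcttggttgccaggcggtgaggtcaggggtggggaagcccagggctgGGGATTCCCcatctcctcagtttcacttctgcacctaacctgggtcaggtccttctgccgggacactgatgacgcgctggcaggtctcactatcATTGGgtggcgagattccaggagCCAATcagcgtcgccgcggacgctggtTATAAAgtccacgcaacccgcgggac
S100b, chr10:76253586-76253835 (plus strand): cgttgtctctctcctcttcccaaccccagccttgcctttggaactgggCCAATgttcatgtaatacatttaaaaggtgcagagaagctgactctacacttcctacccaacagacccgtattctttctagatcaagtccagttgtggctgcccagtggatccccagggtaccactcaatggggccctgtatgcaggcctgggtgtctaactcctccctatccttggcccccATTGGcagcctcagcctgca
The windows of Serpina3n and Gfap held none of the 5 motifs. The S100b window held CCAAT matches, the Vim window CCAAT matches and a TATA match, and the H2-D1 window held an NF-kB match, CCAAT matches and a TATA match. None of the 8 member windows held the STAT or the interferon response letters, which occurred in 7.02% and 7.13% of 32851 mouse promoter windows of the same length. One of the 8 held the NF-kB letters (0.301% of all windows), 3 of 8 held CCAAT (33.8%) and 2 of 8 held TATAAA (7.59%). A match is a description of the letters only.

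Compared per length of transcript, in FPKM over all libraries, S100b had the highest median level of the members (104) and Gfap the next (49.4). H2-D1 (19.6), C4b (15.2) and Vim (14.4) followed, with ranges over libraries that overlapped one another. Serpina3n had a median of 3.38 FPKM, Osmr 1.13, Cd44 0.917 and Lcn2 0.160. Lcn2 rested on a median of 6 counts per library, from 0 to 221, and was at 0 in 2 libraries, so its values carry large counting error. C4b and H2-D1 had estimated counts that were not whole numbers in 100% of libraries. Both have close relatives (C4a for C4b, other MHC class I genes for H2-D1) with which reads can be shared; how such reads were counted is not given in the sources used here, so their values carry that uncertainty. All other levels below are CPM, counts scaled to the size of the library, and fold changes are on the log2 scale.

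In Q175 striatum 6 of the 9 members were called higher than in Q20 at 10 months and none lower, where a call is an adjusted p under 0.05 over all genes tested. Over all 17170 genes tested in that comparison 24.5% were called, 12.4% higher and 12.1% lower. The called members were Serpina3n, Gfap, Vim, H2-D1, S100b and Cd44, and all 8 Q175 libraries lay above the Q20 mean for each of them. The calls come from the same libraries, so this position is a description and no separate support. At 6 months 5 members were called, Serpina3n, S100b, H2-D1 and Vim higher and Lcn2 lower, against a background of 36.2% of genes called. At 2 months none of 8 was called, against 0.218% of genes. The median fold change of the members was 0.05 at 6 months and 0.36 at 10 months, beside 0.0097 and 0.0107 over all genes tested.

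**Figure D1:**
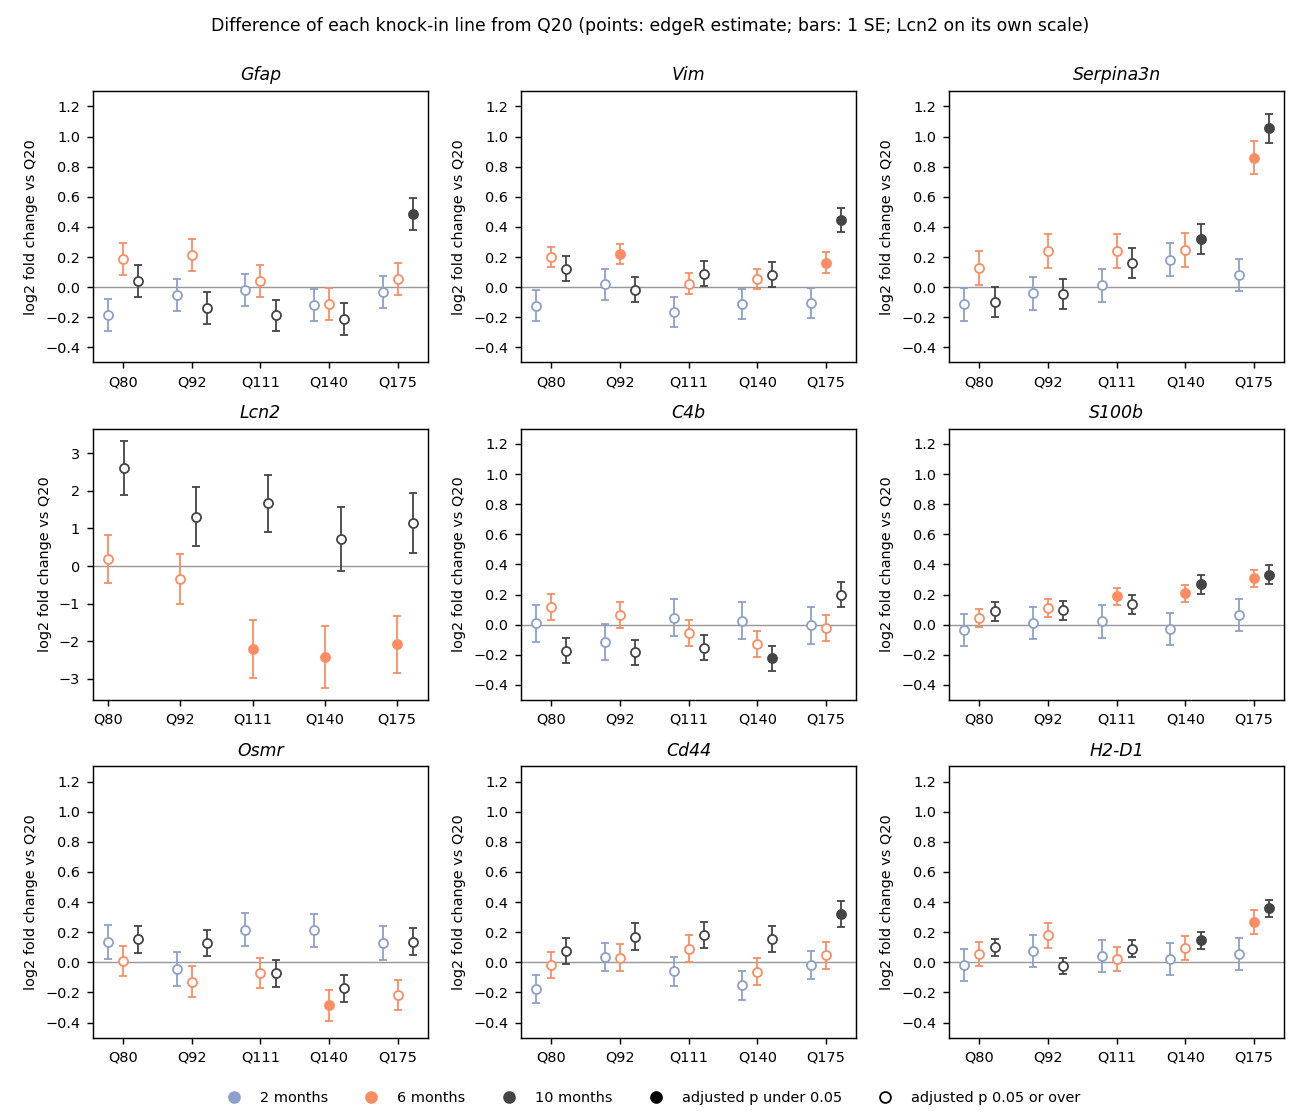
Log2 fold change of each member against Q20 (points are edgeR estimates, bars 1 SE, Lcn2 on its own scale) for the 5 longer-repeat lines at 2, 6 and 10 months; filled points passed an adjusted p under 0.05. Serpina3n stands highest of the called members in Q175 at 6 months (0.86) and 10 months (1.05), and no point is filled at 2 months.

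Among the secreted proteins, Serpina3n showed the clearest difference. At 2 months its level ran from 4.39 to 7.26 CPM in Q20 (median 5.28) and from 4.63 to 7.56 in Q175 (median 5.95), so the groups overlapped. At 6 months Q20 ran from 5.34 to 7.11 CPM (median 6.28) and Q175 from 8.91 to 13.8 (median 11.3). In the oldest mice Q20 ran from 7 to 11 CPM (median 8.25) and Q175 from 15.2 to 24.4 (median 17.4). The Q175 and Q20 libraries did not overlap at either later age. The log2 fold change was 0.08 at 2 months, 0.86 (SE 0.11, adjusted p = 2.9e-10) at 6 months and 1.05 (SE 0.10, adjusted p = 1.2e-12) at 10 months, and the calls at 6 and 10 months held when each of the 16 libraries was left out in turn and under every other setting tried.

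C4b, unlike Serpina3n, was not called between Q175 and Q20 at any age. Its level was 61.4 to 81.8 CPM in Q20 (median 75.4) and 59.1 to 87.9 in Q175 (median 69.5) at 6 months. At 10 months it was 69.2 to 96.1 CPM in Q20 (median 79.3) and 83.8 to 99.3 in Q175 (median 88.2), with all 8 Q175 libraries above the Q20 mean, a fold change of 0.20 (SE 0.08) and an adjusted p of 0.073. That value lay near the threshold: it passed without the Q20 library of female 3 (0.24, adjusted p = 0.034), and against all wild types of the age (0.33, adjusted p = 0.0020), and in 6 other settings. Its near copy C4a, at 2.72 CPM on average at 10 months, was lower in Q175 by -0.90 and -1.05 at 6 and 10 months (adjusted p = 1.9e-13 and 1.4e-08). With the counts of both genes summed, the fold change at 10 months was 0.16 (adjusted p = 0.16).

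Lcn2 was the rarest member and the only one called lower in Q175. At 6 months it ran from 0.0257 to 1.10 CPM in Q20 (median 0.454) and from 0.0226 to 0.290 in Q175 (median 0.0816). These were 1 to 47 counts per Q20 library and 1 to 13 per Q175 library. All 8 Q175 libraries lay below the Q20 mean, though the groups overlapped, and the fold change was -2.08 (SE 0.76, adjusted p = 0.024). Leaving out the Q20 library of female 3, which had the most Lcn2 of its group, gave -1.66 (adjusted p = 0.094). The call was also lost without the Q175 library of male 3 (-1.92, adjusted p = 0.050) or of male 4 (-1.87, adjusted p = 0.055), and against all wild types of the age (-1.18, adjusted p = 0.15). At 10 months the direction was the other way, 1.14 (SE 0.80), and did not pass (adjusted p = 0.32). It turned to -0.49 against all wild types of the age, and was called with the mean of the homeostatic astrocyte genes as a covariate (2.99, adjusted p = 0.0054).

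For the filament genes the fold changes were larger at 10 than at 6 months, though that change was not called for either gene. Gfap ran from 104 to 150 CPM in Q20 (median 137) and from 124 to 157 in Q175 (median 136) at 6 months, with a fold change of 0.05 (SE 0.11, adjusted p = 0.74). In the oldest mice Gfap ran from 126 to 184 CPM in Q20 (median 136) and from 167 to 233 in Q175 (median 199). One Q20 library, male 3 at 184, lay within the Q175 range and the other 7 below it, and the fold change was 0.48 (SE 0.11, adjusted p = 0.00045).

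Vim at 6 months was 26.2 to 35.2 CPM in Q20 (median 31.6) and 30.5 to 40.9 in Q175 (median 35.1), a fold change of 0.16 (SE 0.07) with an adjusted p of 0.047. That call was lost in 10 of the 16 fits that left out 1 library, with fold changes between 0.14 and 0.17 and adjusted p between 0.052 and 0.12: those without Q175 females 1, 2 or 3 or males 1 or 4, and those without Q20 female 1 or any of its 4 males. The 6-month value was 0.09 against all wild types of the age (adjusted p = 0.17) and 0.09 with scores of cortical, choroid plexus and meningeal genes as covariates (adjusted p = 0.28). At 10 months Vim was 21.5 to 31.4 CPM in Q20 (median 26.5) and 27.7 to 38.3 in Q175 (median 36.6), a fold change of 0.45 (SE 0.08, adjusted p = 3.2e-05). The Gfap and Vim calls at 10 months held without each single library.

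S100b, the most abundant member, was called higher in Q175 at 6 and 10 months. It ran from 120 to 151 CPM in Q20 (median 141) and from 157 to 200 in Q175 (median 169) at 6 months, without overlap, a fold change of 0.31 (SE 0.06, adjusted p = 6.8e-06). S100b at 10 months ran from 160 to 194 CPM in Q20 (median 169) and from 193 to 238 in Q175 (median 220), and the groups met only at their edges. The fold change there was 0.33 (SE 0.06, adjusted p = 4.5e-05).

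H2-D1, the antigen-presenting member, ran from 34 to 39.6 CPM in Q20 (median 36.4) and from 37.3 to 55.6 in Q175 (median 41.5) at 6 months. At 10 months it ran from 35.7 to 47.5 CPM in Q20 (median 39.4) and from 40.8 to 59.8 in Q175 (median 52.6). The groups overlapped at both ages, with all 8 Q175 libraries above the Q20 mean, and the fold changes were 0.27 (SE 0.08, adjusted p = 0.0059) and 0.36 (SE 0.06, adjusted p = 1.2e-06). Against all wild types of the age the 6-month value was 0.14 (adjusted p = 0.052), and the 10-month value still passed. At 2 months, without the 7 libraries rich in mitochondrial counts, H2-D1 was the one member called in Q175 (0.24, adjusted p = 0.048). With them it was 0.06 (adjusted p = 0.88). That call came in 1 of 15 alternatives, and 1 Q175 library in it, female 4, stood high at 46.9 CPM beside the next at 36.5.

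Of the receptors, Osmr was not called in Q175 and Cd44 was called at 10 months. Osmr at 6 months was 4.67 to 7.47 CPM in Q20 (median 5.78) and 3.79 to 5.83 in Q175 (median 5.21), a fold change of -0.22 (SE 0.10, adjusted p = 0.084). That value passed without the Q20 library of male 1 (-0.27, adjusted p = 0.030). It also passed in 3 of 13 other settings, among them against all wild types of the age (-0.19, adjusted p = 0.039). Osmr at 10 months was 4.26 to 6.96 CPM in Q20 (median 5.46) and 5.12 to 7.60 in Q175 (median 6.01), a fold change of 0.14 (adjusted p = 0.27).

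Cd44 was 2.81 to 4.22 CPM in Q20 (median 3.40) and 2.92 to 4 in Q175 (median 3.68) at 6 months, a fold change of 0.05 (adjusted p = 0.73). At 10 months it was 2.88 to 4.62 CPM in Q20 (median 3.59) and 3.85 to 5.09 in Q175 (median 4.58), a fold change of 0.32 (SE 0.09, adjusted p = 0.0042). The 10-month call held without each single library, but not against all wild types of the age (0.17, adjusted p = 0.15), among which Cd44 ran from 3.21 to 4.76 CPM, nor with the mean of the homeostatic astrocyte genes as a covariate (0.25, adjusted p = 0.068).

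**Figure D2:**
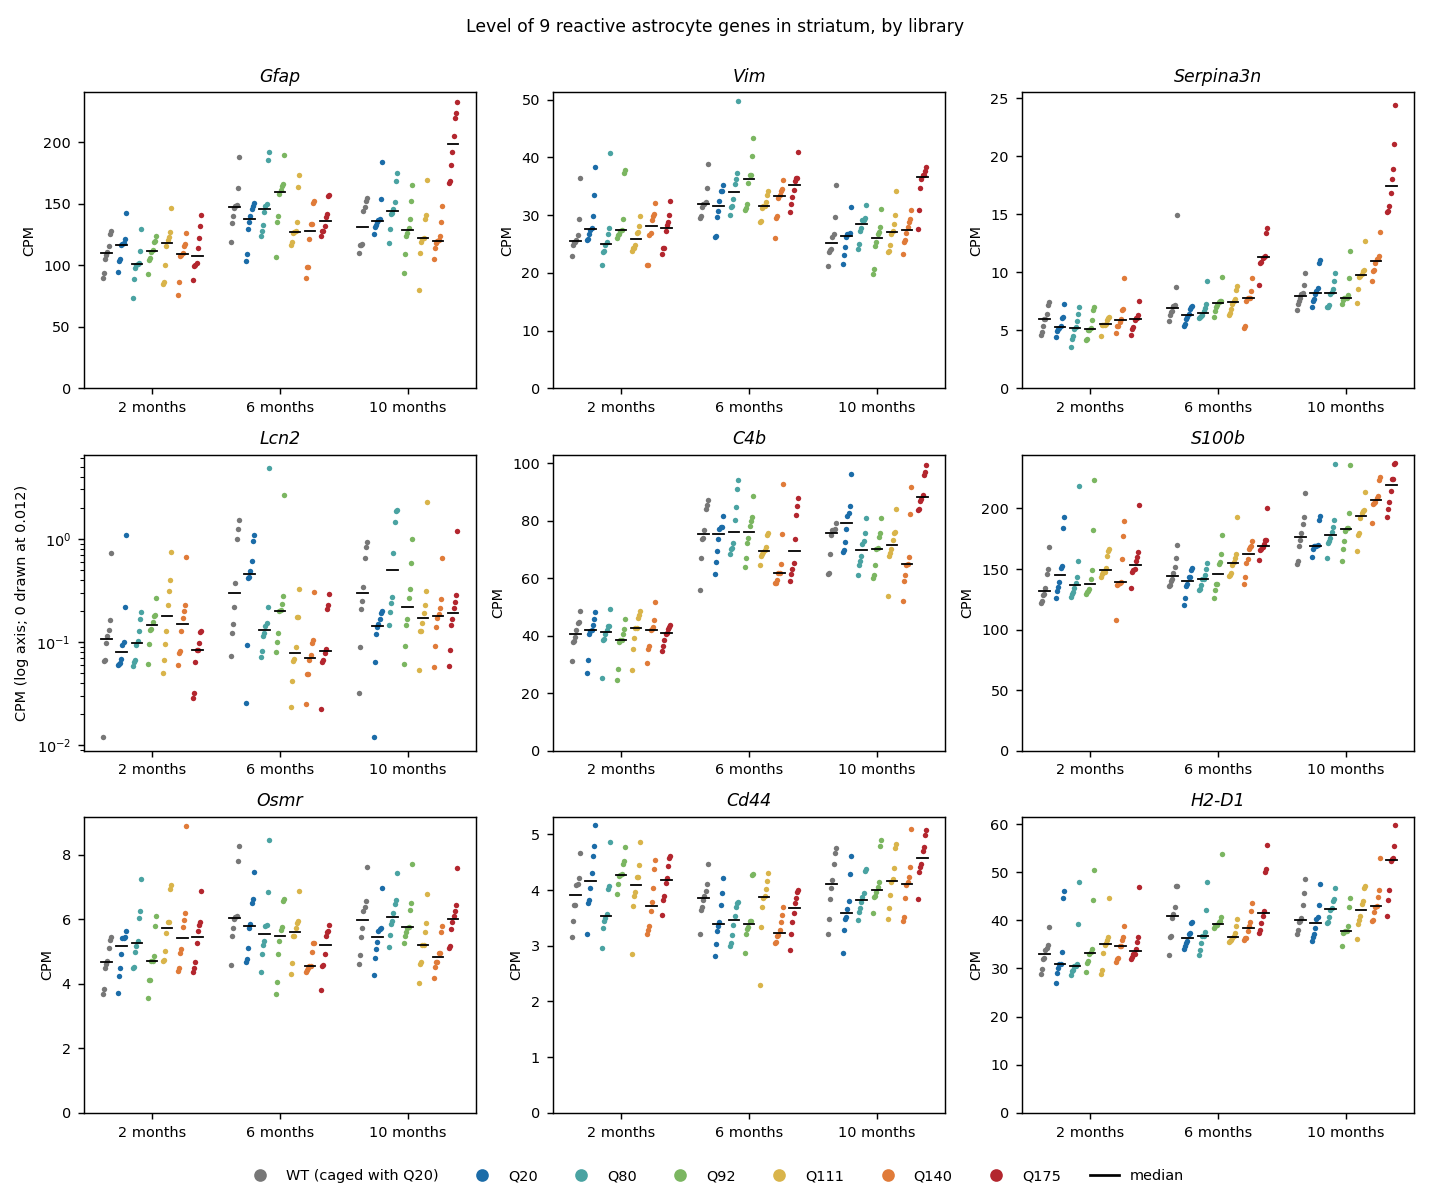
Level of each of the 9 members in CPM (linear axes from 0, except a log axis for Lcn2), 1 point per library, at 2, 6 and 10 months in wild types housed with Q20 and the 6 knock-in lines, with a line at each group's median. The Q175 libraries of Serpina3n stand above every Q20 library at 6 months (8.91 to 13.8 against 5.34 to 7.11 CPM) and at 10 months (15.2 to 24.4 against 7 to 11).

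In the shorter-repeat lines fewer members were called. In Q140 at 6 months 3 of 9 passed, with 27.9% of all genes called: S100b was higher by 0.21 (SE 0.06, adjusted p = 0.0032), and Lcn2 (-2.42, SE 0.82, adjusted p = 0.019) and Osmr (-0.29, SE 0.10, adjusted p = 0.026) were lower. S100b in Q140 at 6 months was 138 to 173 CPM (median 163), above the 141 CPM median of Q20. Osmr was 4.37 to 5.26 CPM there (median 4.55), with all 8 libraries below the Q20 mean. The Osmr call was lost without Q140 male 1 (-0.26, adjusted p = 0.057) or male 2 (-0.26, adjusted p = 0.062), or without Q20 female 4 (-0.27, adjusted p = 0.050) or male 3 (-0.25, adjusted p = 0.070). The Lcn2 call was lost without Q20 female 3 (-1.99, adjusted p = 0.073) and against all wild types of the age (-1.52, adjusted p = 0.10). By limma on log2(FPKM + 1) it was lost too (-0.44, adjusted p = 0.11).

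In Q140 at 10 months 4 of 9 passed, with 22.5% of all genes called. Serpina3n was 9.28 to 13.5 CPM (median 11), higher than Q20 by 0.32 (SE 0.10, adjusted p = 0.014), with all 8 libraries above the Q20 mean. S100b was 188 to 226 CPM (median 207), higher by 0.27 (SE 0.06, adjusted p = 0.0010). H2-D1 was higher by 0.15 (SE 0.06, adjusted p = 0.048) and C4b lower by -0.22 (SE 0.08, adjusted p = 0.046), and these 2 lay at the threshold. The H2-D1 call was lost in 9 of the 16 fits without 1 library and the C4b call in 11. The H2-D1 fits were those without Q140 females 1 or 3 or males 3 or 4, or Q20 females 1, 2 or 5 or males 2 or 3 (fold changes 0.12 to 0.15). The C4b fits were those without Q140 females 1 or 4 or any of its 4 males, or Q20 females 2, 3 or 4 or males 2 or 3 (-0.23 to -0.17).

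Gfap, higher in Q175 at 10 months, was not called in Q140 at that age: it ran from 106 to 148 CPM (median 120), below the Q20 median of 136, with a fold change of -0.21 (SE 0.11, adjusted p = 0.14). Gfap was called lower in 1 of 13 alternatives, with only Q140 and Q20 in the fit (-0.23, adjusted p = 0.028). Those 13 values ran from -0.23 to 0.04. The Q140 and Q175 libraries did not overlap for Gfap. Vim in Q140 ran from 23.2 to 30.9 CPM (median 27.4), beside a Q20 median of 26.5.

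In Q111 at 6 months S100b (0.19, SE 0.06, adjusted p = 0.017) and Lcn2 (-2.20, SE 0.78, adjusted p = 0.046) were called, with 12.8% of all genes called. S100b there was 144 to 193 CPM (median 155), and Lcn2 was 0.0234 to 0.327 (median 0.0786). In Q92 at 6 months Vim was called (0.22, SE 0.07, adjusted p = 0.036), at 30.8 to 43.3 CPM (median 36.2), with 5.99% of all genes called. These calls in Q111 and Q92 were not repeated under the alternatives. No member passed in Q80 at 6 months (0.289% of all genes called) or at 10 months (0.122%), in Q92 at 10 months (1.12%) or in Q111 at 10 months (12.5%). The largest fold change among these, Lcn2 in Q80 at 10 months, was 2.61 (SE 0.72, adjusted p = 0.076), at 0.146 to 1.92 CPM (median 0.502) against 0 to 0.201 in Q20 (median 0.144). At 2 months no member passed in Q80 (0.0118% of all genes called), Q92 (0), Q111 (0.0176%) or Q140 (0), with or without the 7 libraries rich in mitochondrial counts.

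Wild types housed with each line gave another reference at 6 months, separate from Q20. Against its own cage mates Q175 had higher Serpina3n, 8.91 to 13.8 against 5.62 to 7.29 CPM without overlap (0.80, SE 0.11, adjusted p = 3.0e-09), and higher S100b (0.24, SE 0.06, adjusted p = 0.00054), with 31.8% of all genes called. Lcn2 (-1.76), H2-D1 (0.17) and Vim (0.16) did not pass against these cage mates. Against its cage mates Q140 had lower C4b, 58.3 to 92.9 against 69.0 to 96.1 CPM (-0.27, SE 0.09, adjusted p = 0.014), and lower Osmr, 4.37 to 5.26 against 4.71 to 6.97 CPM (-0.27, SE 0.10, adjusted p = 0.040), with 24.2% of all genes called. S100b in Q140 did not pass there (0.13).

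No member passed against cage mates in Q80 (0.0510% of all genes called), Q92 (0.0510%), Q111 (8.94%) or Q20 (0.0227%) at 6 months, nor in Q20 at 2 months (0) or 10 months (0.0116%). Between Q20 and its cage mates at 6 months Serpina3n was 0.33 lower on the log2 scale in Q20 (-0.33, adjusted p = 0.84), and 1 wild-type library, male 3, stood at 14.9 CPM where the group median was 6.89. The 6 wild-type groups of 6 months did not differ among themselves for any member (1.34% of all genes called).

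Fitted as a straight line over the 6 knock-in lines, Serpina3n rose with CAG length by 0.05 and 0.07 per 10 repeats at 6 and 10 months (adjusted p = 6.5e-08 and 3.2e-08). S100b rose by 0.02 at both ages (adjusted p = 1.7e-06 and 2.7e-06), and H2-D1 by 0.01 (adjusted p = 0.0065) and 0.02 (adjusted p = 2.1e-05). Vim (0.02, adjusted p = 0.00049) and Cd44 (0.02, adjusted p = 0.0031) passed at 10 months, and Gfap did not (0.02, adjusted p = 0.066). Osmr (-0.02, adjusted p = 0.015) and Lcn2 (-0.18, adjusted p = 0.0036) fell at 6 months. These were 5 of 9 members at each of the 2 ages, with 39.9% of all genes called at 6 months and 32.8% at 10 months (15.9% higher).

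The slopes leaned on the longest repeat for some members. Without the Q175 libraries the 10-month slope passed for Serpina3n and S100b only, and that of Gfap was -0.02 (adjusted p = 0.088). The Gfap slope passed in 6 other settings, among them without the Q20 libraries (0.05, adjusted p = 0.0075) and with the oligodendrocyte mean as a covariate (0.03, adjusted p = 0.0005). At 6 months the Osmr slope was called in 7 of 14 alternatives. It was lost without the Q175 libraries (-0.02, adjusted p = 0.073) and without the Q20 libraries (-0.02, adjusted p = 0.051). The 6-month H2-D1 slope was also lost without Q175 (0.0068, adjusted p = 0.36) and without Q20 (0.017, adjusted p = 0.060). No member passed at 2 months (0.354% of all genes called), except H2-D1 without the 7 libraries rich in mitochondrial counts (0.02, adjusted p = 0.0072). Libraries of 1 line share their repeat length, so these p-values do not measure the spread between lines.

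Age was compared within genotypes in 1 fit of all libraries. Whether the ages were prepared and sequenced together is not given in the sources used here, so age and preparation cannot be told apart. Among the members called between 2 and 10 months in wild types C4b had the largest difference: it ran from 31.4 to 48.7 CPM at 2 months (median 40.8) and from 61.4 to 79.4 at 10 months (median 75.9), without overlap (0.82, SE 0.10, adjusted p = 9.0e-12). It was already at 55.9 to 87.1 CPM at 6 months (median 75.3). Serpina3n (0.44), S100b (0.37), Osmr (0.36), H2-D1 (0.33) and Gfap (0.27) also rose between 2 and 10 months in wild types, 6 of 9 members, with 23.7% of all genes called and 12.1% higher. Vim (-0.04), Cd44 (0.07) and Lcn2 (1.25, adjusted p = 0.22) did not pass. In Q20, C4b (0.98), Serpina3n (0.66), Gfap (0.31) and H2-D1 (0.22) rose over the same interval, 4 of 9, with 24.3% of genes called and 10.4% higher. Without the 7 libraries of 2 months rich in mitochondrial counts the Gfap rise in Q20 was 0.29 (adjusted p = 0.054), S100b was called (0.33, adjusted p = 8.8e-05) and the H2-D1 rise was 0.41. Lcn2 in Q20 went from -0.58 with those libraries to 0.71 without them, and Vim from -0.19 to -0.06, none of which was called. The calls in wild types and Q175 between 2 and 10 months were unchanged without them.

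In Q175 6 of 9 members rose from 2 to 10 months, with 34.4% of all genes called and 16.4% higher. Serpina3n rose by 1.62 (SE 0.11, adjusted p = 3.0e-30), C4b by 1.17, Gfap by 0.82, H2-D1 by 0.51, S100b by 0.45 and Vim by 0.35. Gfap in Q175 ran from 88.2 to 141 CPM at 2 months (median 108), from 124 to 157 at 6 months (median 136) and from 167 to 233 at 10 months (median 199), so the 10-month libraries did not overlap those of either earlier age. Between 6 and 10 months 7 members rose in Q175, with 42.6% of all genes called: Serpina3n (0.68), Gfap (0.54), Cd44 (0.37), S100b (0.36), C4b (0.34), Osmr (0.29) and H2-D1 (0.21). Over the same months Q20 had Serpina3n (0.50) and S100b (0.35) higher and Vim (-0.25) and Lcn2 (-1.91) lower (41.7% of genes called), and wild types had S100b higher (0.30) and Vim lower (-0.28) (42.4%).

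Between 2 and 6 months, with all libraries, C4b rose in wild types (0.86), Q20 (0.84) and Q175 (0.82). In wild types Gfap (0.41), Osmr (0.40), Serpina3n (0.38), H2-D1 (0.27) and Vim (0.24) rose as well (29.9% of genes called). In Q20 Cd44 alone of the other members was called, lower by -0.30 (40.8% of genes called). In Q175 Serpina3n (0.95), Vim (0.33), H2-D1 (0.30) and Gfap (0.27) rose and Cd44 fell (-0.23), with 33.3% of genes called.

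**Figure D3:**
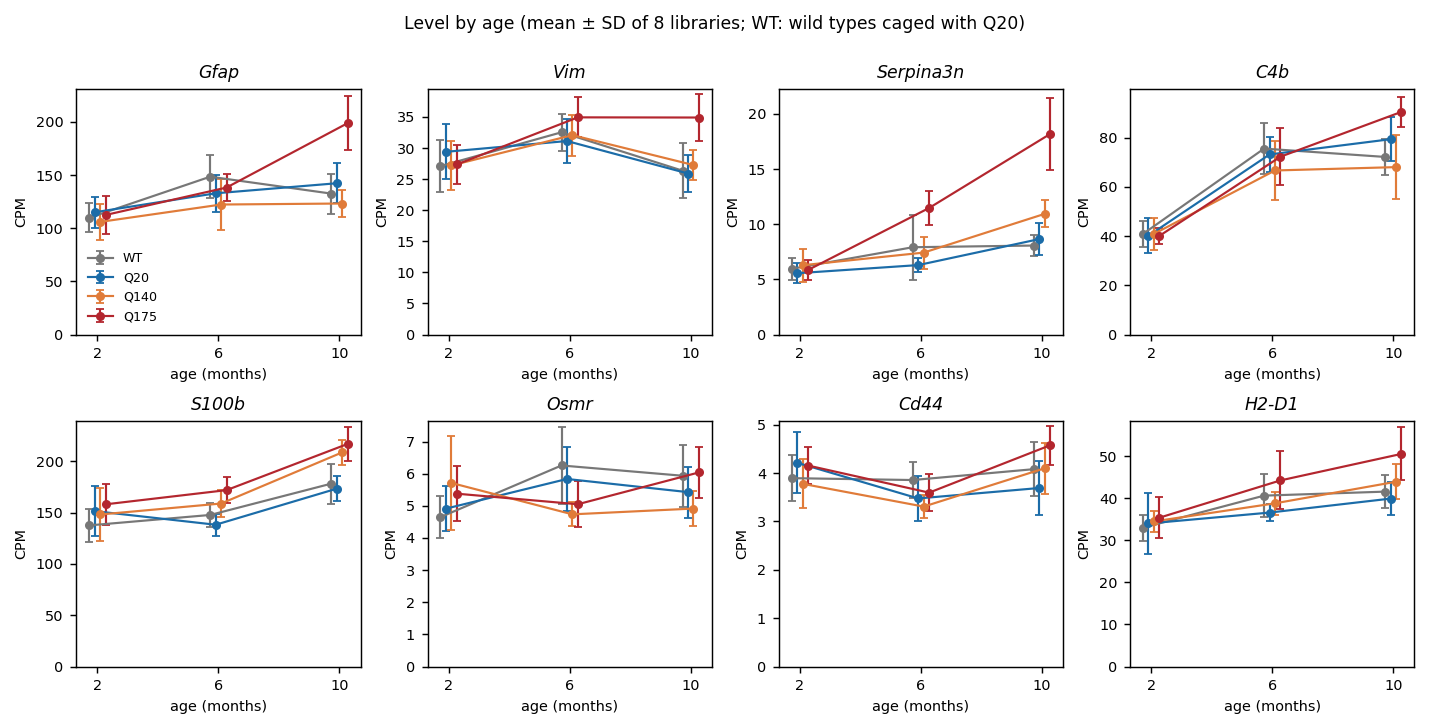
Level of 8 members (without Lcn2) in CPM against age in wild types housed with Q20, in Q20, in Q140 and in Q175; points are means of 8 libraries and bars 1 SD. C4b in wild types stands at 40.9, 75.5 and 72.1 CPM at 2, 6 and 10 months, and Serpina3n in Q175 climbs from 5.85 CPM at 2 months to 18.2 at 10 months.

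Whether the difference between Q175 and Q20 itself changed with age was tested as a difference of differences. From 2 to 10 months it grew for Serpina3n (0.96, SE 0.15, adjusted p = 1.1e-06), Vim (0.54, SE 0.12, adjusted p = 0.00074) and Gfap (0.50, SE 0.15, adjusted p = 0.023), 3 of 9 members, with 6.33% of all genes called. From 2 to 6 months it grew for Serpina3n (0.78, SE 0.15, adjusted p = 0.00011), with 7.88% of genes called. From 6 to 10 months no member passed, and 0.0112% of genes did. The 4 values were 0.95, 0.42, 0.54 and 0.77 without the libraries rich in mitochondrial counts, and each still passed.

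Males and females differed for 5 of the 9 members at 6 months, when 18.5% of all genes were called. Osmr was higher in males (0.24, SE 0.04, adjusted p = 7.3e-06), 39 of 48 males lying above the female mean, as was Lcn2 (1.17, SE 0.31, adjusted p = 0.0047). The Lcn2 call held in 2 of 3 alternatives, but not by limma on log2(FPKM + 1) (0.21, adjusted p = 0.090). Its highest library was a male, Q80 male 3 at 4.82 CPM. Vim (-0.12, adjusted p = 0.00082), H2-D1 (-0.13, adjusted p = 0.0039) and S100b (-0.07, adjusted p = 0.025) were lower in males. H2-D1 was lower in males at 10 months too (-0.14, SE 0.03, adjusted p = 0.0047; 1.28% of genes called), and Serpina3n was higher in males at 2 months (0.25, SE 0.06, adjusted p = 0.020; 0.923% of genes called). Without the libraries rich in mitochondrial counts Osmr (0.26, adjusted p = 0.012), H2-D1 (-0.12, adjusted p = 0.029) and Vim (-0.12, adjusted p = 0.048) were called at 2 months as well. The difference between Q175 and Q20 was not called as differing between sexes for any member at 2, 6 or 10 months (0 of all genes called at each age).

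Between libraries of the same group and sex, some members varied together. These correlations are of log2 CPM after group and sex were removed; the libraries share dissection and depth, and the values are a description. Gfap and S100b had r = 0.68 over the 96 libraries of 6 months and 0.68 over the 56 of 10 months, and C4b and H2-D1 had 0.57 and -0.25. Lcn2 and Osmr had 0.53 and 0.41, and Gfap and Serpina3n 0.41 and 0.50. At 2 months S100b and H2-D1 had r = 0.85 over 56 libraries and 0.61 over the 49 left without those rich in mitochondrial counts, and Vim and S100b had 0.74 and 0.30.

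The members also followed markers of different cell types. The mean of 11 oligodendrocyte markers had r = 0.82 with S100b and 0.78 with Gfap at 6 months, and 0.86 and 0.79 at 10 months. The mean of 12 interferon-stimulated genes had r = 0.85 with H2-D1 at 6 months and 0.45 at 10 months. The mean of the ependymal and choroid plexus markers had r = 0.54 with Vim at 6 months and 0.39 at 10 months. These list means left out genes with a mean under 1 CPM over all libraries.

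The genes most like each member over the 96 libraries of 6 months, by the same r, differed from member to member. For H2-D1 they were H2-K1 (0.88), another MHC class I heavy chain, B2m (0.83), the light chain that pairs with them, and Irf7 (0.82), an interferon regulatory factor. For S100b they were Lamp1 (0.87), Gjc3 (0.83) and Bcas1 (0.83), and for Gfap they were Cers2 (0.79), Pkp4 (0.79) and Slc44a1 (0.78); Gjc3 and Bcas1 are known from oligodendrocyte lineage cells. Foxj1, a factor of ciliated cells, led for Vim (0.62), before Clu (0.59) and Fxyd1 (0.58). Acer2 led for Osmr (0.77) and stood next to Icam1 (0.61) for Lcn2 (0.59). The lead gene for C4b was Abhd4 (0.69), for Cd44 Rxfp2 (0.53) and for Serpina3n Ccnd1 (0.50).

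**Figure D4:**
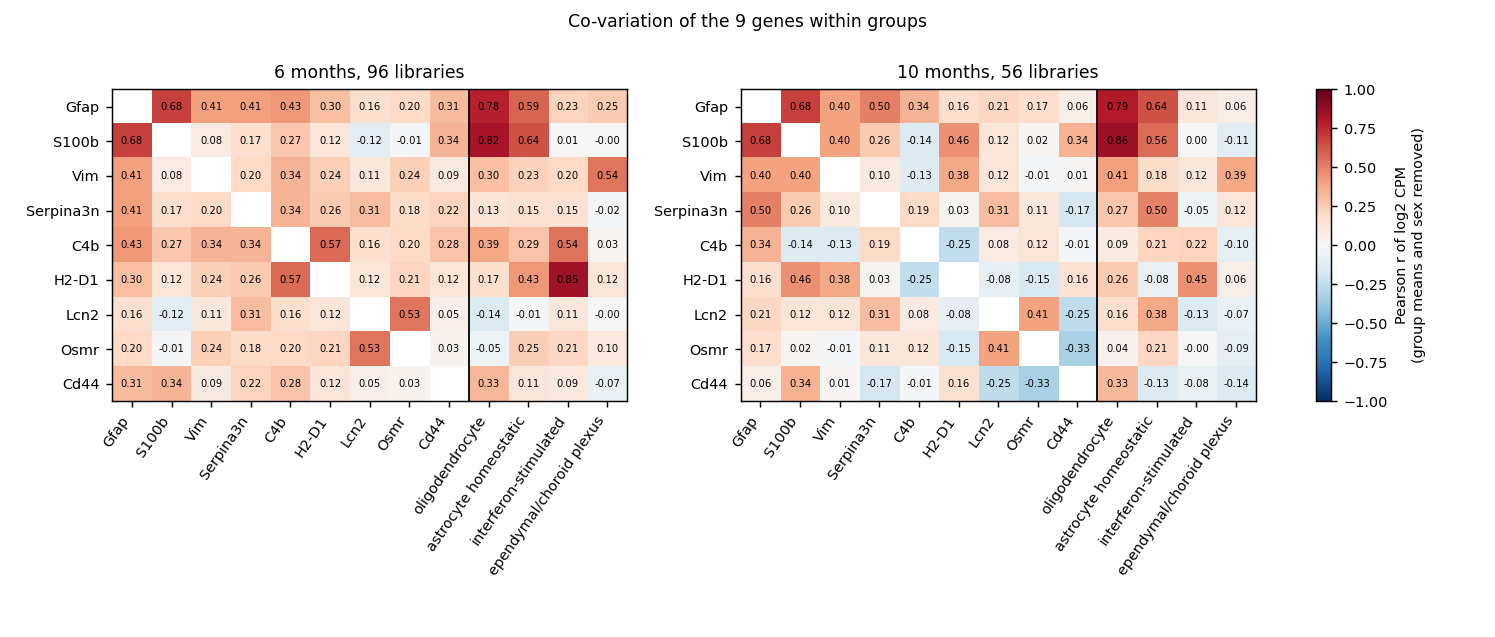
Pearson r between members, and (right of the line) between each member and the mean of 4 marker lists, over the 96 libraries of 6 months and the 56 of 10 months after group and sex were removed; colours run from -1 (blue) to 1 (red). S100b and Gfap have their strongest values with the oligodendrocyte mean (0.82 and 0.78 at 6 months), and H2-D1 with the interferon-stimulated mean at 6 months (0.85).

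Markers of several cell types were called between Q175 and Q20. Over all genes tested 36.2% were called at 6 months and 24.5% at 10 months. Of 11 oligodendrocyte markers 5 were lower at 6 months (Mobp -0.36 and Mal -0.35 the largest), and at 10 months 5 were lower and Cnp (0.15) and Mog (0.20) higher. Their summed level at 10 months ran from 9103 to 11565 CPM in Q175 and from 10823 to 13435 in Q20. With the oligodendrocyte mean as a covariate the 10-month fold change of Gfap was 0.62 (adjusted p = 8.8e-11) and that of S100b 0.42 (adjusted p = 1.8e-14), and Gfap was called at 6 months (0.19, adjusted p = 0.021). With the mean of the homeostatic astrocyte genes as a covariate Gfap was 0.30 at 6 months (adjusted p = 0.0065) and 0.86 at 10 months, both called.

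Of 12 microglia markers 4 were lower at 6 months (Fcrls -0.18, Cd68 -0.16 and P2ry12 -0.12 the largest), and at 10 months Ctss was higher (0.17) and Cx3cr1 lower (-0.14). Neither microglia share is above the 36.2% and 24.5% of all genes called at those ages. Of 12 endothelial and mural markers 9 were lower at 6 months and 6 at 10 months, and none of 8 ependymal and choroid plexus markers was called at either age. Of 10 medium spiny neuron markers 9 were lower at both ages, led by Scn4b (-1.46 and -1.32) and Penk (-1.23 and -1.04). Their summed level ran from 3373 to 4508 CPM in Q175 and from 5921 to 8223 in Q20 at 10 months. What part these shifts have in the members' differences was not tested. The genes behind the covariates were themselves partly lower in Q175, so the covariate fits cannot tell cell content and RNA per cell apart.

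Of 15 homeostatic astrocyte genes 6 were called lower in Q175 than in Q20 at 6 months, a share near the 36.2% of all genes called, and 10 at 10 months, beside 24.5% of all genes. None was called higher. The list's median fold change was -0.10 and -0.19. The glutamate transporter Slc1a2 was lower by -0.33 (adjusted p = 9.2e-13) and -0.38 (adjusted p = 1.2e-07), glutamine synthetase Glul by -0.25 and -0.36, and the bicarbonate cotransporter Slc4a4 by -0.35 and -0.34. The summed level of the 15 genes ran from 7344 to 8506 CPM in Q20 and from 6546 to 7197 in Q175 at 6 months, and from 7397 to 7884 and from 5718 to 6464 at 10 months, without overlap at either age. The summed level of the 9 reactive genes ran from 444 to 533 CPM in Q20 and from 563 to 679 in Q175 at 10 months, also without overlap; S100b and Gfap make up most of that sum.

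Other genes used to grade reactive astrocytes were seldom called at 6 months, beside 36.2% of all genes, and more often at 10 months, beside 24.5%. Of 6 other pan-reactive genes tested none was called at 6 months and Cxcl10, a chemokine, at 10 months (1.27, SE 0.41, adjusted p = 0.017). Cxcl10 was of low level, with a median of 0.222 CPM over all libraries. Of 10 genes of the A1 type, first described after inflammatory stimulation, Fbln5 was lower at 6 months (-0.65) and at 10 months (-0.59), joined at 10 months by Amigo2 (-0.25), and none was higher. Of the genes of the A2 type, first described after ischaemia, S100a10 (-0.64) and Tm4sf1 (-0.19) were lower among 11 tested at 6 months. At 10 months 5 of 10 were called: Ptgs2 (0.41), Clcf1 (0.31) and Cd14 (0.30) and the low-level Tgm1 (1.58) were higher and S100a10 lower (-0.59).

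Around Osmr, the gp130 and STAT3 pathway held 3 higher genes of 14 tested at 6 months, the ligand Ctf1 (0.62), the kinase Tyk2 (0.19) and the receptor Lifr (0.16), and 1 lower, the kinase Jak2 (-0.19). At 10 months Ctf1 was the one gene called of 12 (0.60). Stat3 itself and Socs3 were not called at either age. Around C4b, 3 of 15 complement genes were lower at each age and none higher, among them C4a and Cd59a (-0.64 and -0.47) at both ages and Cd55 at 10 months (-0.40). Cd59a and Cd55 encode inhibitors of complement. Over all genes tested 36.2% were called at 6 months and 24.5% at 10 months. Neither the gp130 and STAT3 list nor the complement list had a larger share called at either age.

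Around H2-D1, 1 of 14 genes of MHC class I presentation was higher at 6 months, H2-T22 (0.34), and 3 at 10 months, H2-T22 (0.28), H2-K1 (0.24) and B2m (0.23). Over all genes tested 36.2% were called at 6 months and 24.5% at 10 months, and neither MHC class I share is above these. Of 12 interferon-stimulated genes 2 were higher at 6 months, Ifit1 (0.55) among them, and 8 at 10 months, led by the factor Irf7 (1.0, SE 0.17, adjusted p = 6.2e-06), Usp18 (0.78) and Rtp4 (0.70). The list's median fold change was 0.28 at 6 months and 0.48 at 10 months. Around Cd44, the hyaluronan synthases Has1 (0.32 and 0.43) and Has3 (-0.33 and -0.29) went in opposite directions at 6 and 10 months, the hyaluronidase Hyal2 was higher (0.38 and 0.25) and the link protein gene Hapln1 lower (-0.22 at both ages). Hapln2 was lower at 10 months (-0.20). None of 8 other intermediate filament genes was called beside Gfap and Vim at either age. Of 7 other S100 genes S100a10 was lower at both ages, and S100a6 (0.26) and S100a13 (0.18) were higher at 10 months.

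**Figure D5:**
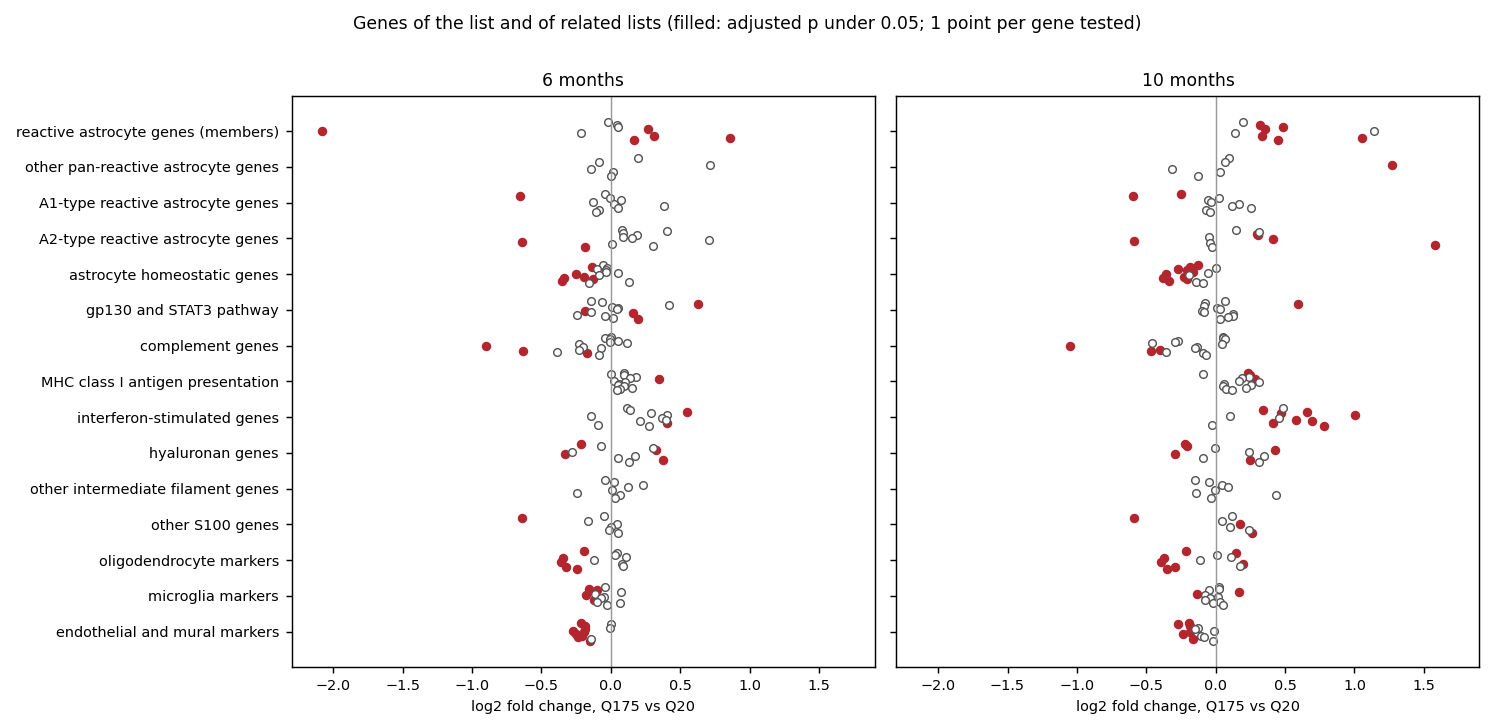
Log2 fold change of Q175 against Q20 (horizontal axis) at 6 and 10 months for the members and the genes of 14 related lists, 1 point per gene tested, filled in red where called. The homeostatic astrocyte genes reach down to -0.38 at 10 months with no called gene above 0, and 8 of 12 interferon-stimulated genes are filled above 0 at 10 months.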

How the data were processed

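Striatal polyA RNA was sequenced in 144 knock-in and 64 wild-type libraries. The authors deposited a table of estimated counts per gene, in which 32.67% of values above 0 are not whole numbers (tolerance 1e-06), and a table of FPKM values per gene. CASAVA 1.8.2 is named per the submitters' processing notes; which aligner, counter and build were used is not given in the sources used here. All columns were matched to samples by the library names in the labels. The deposited estimated counts were rounded and tested with edgeR 4.0.16 (R 4.3.3): TMM factors, genes kept by filterByExpr (minimum count 10, minimum total 15), robust quasi-likelihood fit per age with group and sex, and Benjamini-Hochberg adjustment over all genes tested (17006 at 2, 17642 at 6 and 17170 at 10 months). A call is an adjusted p under 0.05, and every adjusted p in the text is from edgeR unless another tool is named. Age was tested in 1 fit of all libraries (17863 genes). CPM levels use TMM factors over all libraries, and the authors' FPKM values were used to compare genes.

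A reference table of gene IDs and symbols named 37607 of the 39179 IDs. Standard errors are the fold change divided by the square root of the F statistic. Alternatives used DESeq2 1.42.0, limma 3.58.1 on log2(FPKM + 1) and log2(FPKM + 0.1), other filters, scalings, references and covariates, and single libraries left out. The fits were tested on simulated data. The rule names all 9 members in every comparison; those not called are in places given by count alone. From the 20 other lists the text names, for Q175 against Q20, at most 3 called genes per direction and list by size with a mean of at least 1 CPM, every called gene of the gp130 and STAT3, complement and MHC class I lists, and the 3 genes most like a member; Stat3, Socs3, Cxcl10, Tgm1 and single genes at counts of 5 or fewer were added after their values were seen. Some genes that this rule names are not reported here. The members and lists were chosen with earlier results of these data known. Libraries of Q175 and Q20 with the same sex and number had deviations that correlated between -0.355 and 0.187, and they were not treated as pairs in the main fits.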

Additional observations from a re-analysis of the deposited data

Results flagged for a closer look

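In each group of 8 libraries the highest and lowest value of each member was compared with its nearest neighbour, and a library whose gap exceeded Dixon's 95% critical value for 8 values is given here. For independent, normally distributed values about 1 in 20 groups would have such a library. Members share libraries and CPM values need not be normally distributed, so that share is a rough guide and no test. Here 33 of 234 pairs of gene and group had one, 12 of them among the 26 groups of Lcn2 and 21 among the other 8 members.

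Lcn2 stood far above the rest of its group in 12 libraries: Q80 male 3 at 6 months (4.824 CPM), the wild type housed with Q80 male 4 (3.83), Q92 male 2 at 6 months (2.675), the wild type housed with Q175 male 4 (2.257), Q111 male 3 at 10 months (2.246), Q175 female 2 at 10 months (1.178), Q20 male 3 at 2 months (1.079), the wild type housed with Q20 female 2 at 2 months (0.7215), Q140 male 2 at 2 months (0.6635), Q140 female 2 at 10 months (0.6449), the wild type housed with Q140 female 1 (0.5136) and Q140 female 2 at 6 months (0.3048). The same library was high for Serpina3n in Q80 male 3 at 6 months (9.212) and Q92 male 2 at 6 months (9.617), and for Osmr in Q140 male 2 at 2 months (8.896).

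Serpina3n also stood apart in the wild type housed with Q20 male 3 at 6 months (14.94), in Q140 male 1 at 2 months (9.518) and, as a low value, in Q111 female 1 at 2 months (4.533). S100b stood high in Q80 female 2 at 10 months (236.7), Q80 male 5 at 2 months (219), Q175 female 4 at 2 months (203), Q175 female 2 at 6 months (200.4) and Q111 female 3 at 6 months (193.1), and low in the wild type housed with Q111 male 3 (126.7). Vim stood high in Q80 female 3 at 6 months (49.73), Q80 male 5 at 2 months (40.76) and the wild type housed with Q20 female 1 at 2 months (36.47). H2-D1 stood high in the wild type housed with Q80 male 3 (57.28), Q92 female 2 at 6 months (53.88) and Q175 female 4 at 2 months (46.89). C4b stood high in the wild types housed with Q111 female 2 (92.43) and housed with Q175 female 4 (87.68), both of 6 months, and low in Q80 male 5 at 2 months (25.27). Q80 male 5 at 2 months, which stood apart for 3 members, is one of the 7 libraries rich in mitochondrial counts, as are Q20 male 3 and the wild type female 1 of that age.

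The difference between Q175 and Q20 itself differed between ages by its own test for 3 members: from 2 to 10 months by 0.9612 for Serpina3n, 0.5412 for Vim and 0.5044 for Gfap, and from 2 to 6 months by 0.7833 for Serpina3n.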

How the results depend on the processing

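Over 138 fits, 1500 member values stayed on their side of the threshold, 92 fell below it, 46 newly passed it, 40 stayed there but changed sign by more than 1 SE, and 2 reversed; in all 97 values changed sign with no call in either fit. With the mean of the homeostatic astrocyte list as a covariate the slope of Gfap at 6 months was 0.02004 and passed, against -0.0047 without, and that of Lcn2 at 10 months was 0.1547 and passed, against -0.0034; the cause was not tested. In Q175 at 10 months Gfap, Vim, Serpina3n, S100b and H2-D1 passed under every alternative run.

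Counts of called members moved by over 1.5 times as follows. Q140 at 10 months had 4, with no filter on low counts 2, with the homeostatic covariate 2 and with cortical, choroid plexus and meningeal covariates 1. Q140 at 6 months had 3, and 1 by limma on FPKM with no filter. Q175 at 6 months had 5, and 3 against all wild types of the age. Q175 at 2 months had 0, and 1 without the libraries over 17% mitochondrial counts. The slope had 5 members at 6 months: 3 under each FPKM setting, 3 without Q175 and 2 without Q20. At 10 months it had 5, and 2 without Q175. At 2 months it had 0, and 1 without the 5 libraries under 0.97 or the 7 rich in mitochondrial counts. For sex, DESeq2 called 2 at 10 months against 1, and 2 at 2 months against 1; at 2 months limma on FPKM called 0, the fit without mitochondria-rich libraries 4 and that without the male library lacking Y-linked counts 2. Leaving out 1 library gave 2 to 4 in Q140 at 10 months, 2 to 4 in Q140 at 6 months, 6 to 7 in Q175 at 10 months and 3 to 5 in Q175 at 6 months (3 without Q175 male 4).

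With the replicate block the counts were 3 in Q140 and 6 in Q175 at 10 months, 3 in Q140 and 6 in Q175 at 6 months, 0 in Q175 at 2 months, and 5 for both slopes; it ended the H2-D1 call in Q140 at 10 months (0.12, adjusted p = 0.095) and made one for Osmr in Q175 at 6 months (-0.21, adjusted p = 0.040). At most 3 of 8 same-numbered libraries correlated best with their own number.

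No library of 6 or 10 months had a median correlation under 0.97, so that alternative gave no value there. Lcn2 had the lowest median count of the members, 6, and its fold changes moved with the settings (-0.38 to -2.56 in Q175 at 6 months). The -0.38 was by limma on log2(FPKM + 1), where the added 1 is large beside its median of 0.160 FPKM and shrinks the value.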

Other observations

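Neural stem cells and neuroblasts of the subventricular zone, which borders the striatum, also make GFAP or vimentin. Of 7 genes that mark these progenitors and neuroblasts, 3 were higher in Q175 than in Q20 at 6 months, led by Sox11 (0.85, SE 0.12, adjusted p = 1.7e-08) and Dcx (0.46, SE 0.08, adjusted p = 3.4e-06). Over all genes tested 36.2% were called in that comparison at 6 months and 24.5% at 10 months. At 10 months Dcx was higher (0.25, SE 0.09, adjusted p = 0.034) and the proliferation gene Mki67 lower (-0.50, SE 0.15, adjusted p = 0.012). The summed level of the 7 genes ran from 34.9 to 52.4 CPM in Q20 and from 50.3 to 67.0 in Q175 at 6 months, which overlapped. Of 6 oligodendrocyte precursor markers Olig2 (0.38), Olig1 (0.33) and Gpr17 (0.21) were higher in Q175 at 6 months, and Olig1 (0.36) at 10 months. What part either shift has in the levels of Gfap, Vim or S100b was not tested.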
